A study of Mus musculus with 10 samples.

Results

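The data described here are the RNA levels of 9 mouse genes, among 11702 in the table, whose proteins build the rod and cone outer segment or the matrix around it: *Prph2*, *Rom1*, *Prom1*, *Rp1*, *Rp1l1*, *Cdhr1*, *Abca4*, *Impg1* and *Impg2*. They were listed by name for their known roles, and all 9 were found and passed the filter on low counts in every comparison. The study sequenced RNA of whole retina from 10 libraries of female mice. Its stated aim was molecular insight into how the antimalarial halofantrine (HAL) protects photoreceptors. Vehicle (DMSO) or 20 μM HAL was injected into the vitreous in a volume of 1 μL at postnatal day 10 (P10) and again at P24, and the retina was taken at P36. There were 4 libraries of WT mice given DMSO, 3 of rd10 mice given DMSO and 3 of rd10 mice given HAL, and no WT mouse given HAL was analysed here. The rd10 mice came from intercrosses of B6.CXB1-Pde6brd10/J, in which *Pde6b*, the gene for the β subunit of the rod phosphodiesterase, carries a germline mutation. The strain of the WT mice was not given in the sources used here. The labels place all WT libraries, rd10 DMSO replicates 1 and 2 and rd10 HAL replicate 1 in batch 1, and rd10 DMSO replicate 3 and rd10 HAL replicates 2 and 3 in batch 2. The library titles also name sets: set1 for WT replicates 1 to 3, set1_5 for WT replicate 4, set2 for the rd10 libraries of batch 1, last_rd10 for the HAL and final_rd10 for the DMSO libraries of batch 2. What the sets are is not given in the sources used here, and genotype and set within batch 1, and treatment and set within batch 2, cannot be told apart. The labels do not say that the libraries of a group came from separate animals, so the p-values below measure the spread between these libraries only.

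The outer segment is a modified cilium filled with stacked membrane discs on which light is detected. Peripherin-2 (*Prph2*) and its relative ROM1 (*Rom1*) form the curved rim of each disc, prominin-1 (*Prom1*) and the photoreceptor cadherin (*Cdhr1*) sit where new discs grow out at the base, and RP1 (*Rp1*) and its relative RP1L1 (*Rp1l1*) bind the microtubules of the axoneme along which discs are stacked. ABCA4 (*Abca4*) moves retinoid across the disc membrane after light exposure, and IMPG1 and IMPG2 (*Impg1*, *Impg2*) are proteoglycans of the interphotoreceptor matrix that lies between the photoreceptors and the pigment epithelium. In rd10 mice the rods are lost over the first postnatal weeks and the cones later. In RNA of whole retina, fewer photoreceptors and less RNA per photoreceptor cannot be told apart.

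Gene count totals ran from 15512212 to 38160436 per library. Levels are given as CPM, counts scaled to a common library total, after TMM scaling over the 10 libraries. The library labelled WT replicate 4 did not match the other WT libraries. Its level of *Pde6b* was 93.1 CPM, against 2699, 2850.0 and 2855 CPM in WT replicates 1 to 3 and 125 to 387 CPM in the 6 rd10 libraries. It also lay below all 6 rd10 libraries for 9 of 9 genes described here, which was so for 11.6% of all genes (1354 of 11700). Its values thus go against its label, and whether the label is right was not tested. The tests of the 9 genes against WT are therefore given with and without this library, and every value over 4 WT libraries includes it. Values given for WT replicates 1 to 3 leave it out, and calls in the other gene lists are given mostly without it. Defining markers of retinal cells were present throughout: the 15 rod markers summed to between 3501 and 86868 CPM over the 10 libraries and the cone arrestin gene *Arr3* was at 379 to 707 CPM.

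Promoter windows from RefSeq (GRCm38.p6), 250 bases before to 50 after the annotated start, were matched for 7 of the 9 genes, in 8 windows. *Rp1* and *Rp1l1* had no entry. The windows shown are those of the gene that was lowest in rd10 relative to WT (*Prph2*), of the gene that was least changed (*Impg2*), of the gene that holds TAATCC (*Abca4*), and of a pair of annotated starts of *Prom1*. The most abundant *Prom1* transcript, Prom1-206, starts at position 44102032 of chromosome 5, upstream of both *Prom1* windows and outside them. Capitals mark CTAAT, which holds the TAAT core that homeodomain proteins bind, and TAATCC, the letters that the photoreceptor homeodomain factor CRX prefers. Both were searched on both strands (ATTAG and GGATTA on the other strand), and neighbouring matches of CTAAT and ATTAG can overlap.
Prph2 chr17:46910228-46910527 (+ strand): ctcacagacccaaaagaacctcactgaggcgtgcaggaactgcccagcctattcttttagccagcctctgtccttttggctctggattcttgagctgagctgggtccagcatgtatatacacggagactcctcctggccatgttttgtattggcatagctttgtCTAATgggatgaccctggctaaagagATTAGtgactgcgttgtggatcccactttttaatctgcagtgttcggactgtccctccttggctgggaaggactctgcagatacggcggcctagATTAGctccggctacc
Abca4 chr3:122044210-122044509 (+ strand): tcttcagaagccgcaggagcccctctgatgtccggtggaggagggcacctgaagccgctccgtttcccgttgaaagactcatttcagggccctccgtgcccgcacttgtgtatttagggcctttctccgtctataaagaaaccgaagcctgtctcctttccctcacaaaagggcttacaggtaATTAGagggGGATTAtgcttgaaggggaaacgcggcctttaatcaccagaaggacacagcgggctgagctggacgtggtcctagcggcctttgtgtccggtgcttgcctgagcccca
Impg2 chr16:56204063-56204362 (+ strand): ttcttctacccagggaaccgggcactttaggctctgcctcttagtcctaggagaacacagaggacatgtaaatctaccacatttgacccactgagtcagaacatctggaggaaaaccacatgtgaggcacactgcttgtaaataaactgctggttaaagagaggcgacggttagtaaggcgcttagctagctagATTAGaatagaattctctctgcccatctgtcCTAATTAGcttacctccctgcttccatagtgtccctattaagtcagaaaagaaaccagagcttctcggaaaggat
Prom1 upstream start chr5:44101687-44101986 (- strand): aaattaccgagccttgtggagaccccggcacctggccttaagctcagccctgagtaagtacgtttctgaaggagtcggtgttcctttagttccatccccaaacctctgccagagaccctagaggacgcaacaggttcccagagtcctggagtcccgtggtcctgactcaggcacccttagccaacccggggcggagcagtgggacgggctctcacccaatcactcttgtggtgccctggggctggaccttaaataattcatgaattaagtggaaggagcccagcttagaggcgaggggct
Prom1 downstream start chr5:44094719-44095018 (- strand): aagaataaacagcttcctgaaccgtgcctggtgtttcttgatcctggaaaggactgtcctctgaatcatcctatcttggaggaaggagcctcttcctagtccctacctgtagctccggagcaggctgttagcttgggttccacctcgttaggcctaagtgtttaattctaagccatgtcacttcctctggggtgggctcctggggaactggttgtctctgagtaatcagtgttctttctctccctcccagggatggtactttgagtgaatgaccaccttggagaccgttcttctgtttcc
CTAAT was found in the windows of 5 of the 7 genes, *Prph2*, *Cdhr1*, *Abca4*, *Impg1* and *Impg2*, and in 24.6% of all 32851 windows. TAATCC was found in the window of *Abca4*, at position -58 from the start, and in 7.06% of all windows. The letters TGCTGA, read from the other strand as TCAGCA, are the core of sites of the rod factor NRL and were in none of the 8 windows and in 19.5% of all windows. A match is a description of the letters and was not tested as a binding site.

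At the disc rim, *Prph2* stood at 5889.8, 6101 and 5866 CPM in WT replicates 1 to 3, at 390.0, 390.2 and 765 CPM in rd10 DMSO replicates 1 to 3 and at 374, 774 and 675 CPM in rd10 HAL replicates 1 to 3. The library labelled WT replicate 4 had 312 CPM. All 6 rd10 libraries were far below WT replicates 1 to 3 without overlap, and within rd10 the batch 2 libraries, of either treatment, were the high ones. *Rom1* showed the same order of groups, at 2161, 2296 and 2211 CPM in WT replicates 1 to 3, 217, 219 and 329.5 CPM in rd10 DMSO and 218, 374 and 324 CPM in rd10 HAL. For *Rom1* the library labelled WT replicate 4 had 188 CPM. In rd10 DMSO the mean level was 8.65% of WT replicates 1 to 3 for *Prph2* and 11.5% for *Rom1*, so *Prph2* kept the smallest share of the 9 genes.

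At the disc base, *Prom1* was at 995, 982 and 1069 CPM in WT replicates 1 to 3, 172, 187 and 358 CPM in rd10 DMSO and 159, 278 and 266 CPM in rd10 HAL. For this gene the library labelled WT replicate 4 had 144 CPM. *Cdhr1*, whose protein links growing discs to the inner segment, was at 1313, 1264 and 1553 CPM in WT replicates 1 to 3, 267, 329 and 478 CPM in rd10 DMSO and 273, 467 and 436 CPM in rd10 HAL, with 240.4 CPM in the library labelled WT replicate 4. These genes kept larger shares than the rim genes, 23.5% (*Prom1*) and 26.0% (*Cdhr1*) of WT replicates 1 to 3 in rd10 DMSO. rd10 DMSO replicate 3 was the highest rd10 library for both.

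Along the axoneme, *Rp1* was at 2357, 2364 and 2415 CPM in WT replicates 1 to 3, 166, 192 and 514 CPM in rd10 DMSO and 152, 332 and 309 CPM in rd10 HAL. It had 135 CPM in the library labelled WT replicate 4. Of the 9 genes *Rp1* had the widest spread within rd10 DMSO relative to its mean, 291 ± 194 CPM (SD, n = 3), and replicate 3 was higher than replicates 1 and 2 together. *Rp1l1* was at 1021, 1064 and 1094 CPM in WT replicates 1 to 3, 124, 130.2 and 194 CPM in rd10 DMSO and 114, 203 and 175 CPM in rd10 HAL, with 98.2 CPM in the library labelled WT replicate 4. The share of the WT level (replicates 1 to 3) left in rd10 DMSO was 12.2% for *Rp1* and 14.1% for *Rp1l1*.

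*Abca4*, the retinoid transporter of the disc, was at 2103, 2073 and 2422 CPM in WT replicates 1 to 3, 263, 281 and 432 CPM in rd10 DMSO and 254, 408 and 389 CPM in rd10 HAL. It had 248 CPM in the library labelled WT replicate 4, just under the lowest rd10 library. Among the matrix proteoglycans, *Impg1* was at 455, 444 and 545 CPM in WT replicates 1 to 3, 53.1, 62.6 and 104 CPM in rd10 DMSO and 55.7, 94.4 and 90.0 CPM in rd10 HAL, with 41.5 CPM in the library labelled WT replicate 4. *Impg2* was at 572, 555 and 618 CPM in WT replicates 1 to 3, 136, 163 and 259 CPM in rd10 DMSO, 125, 207 and 200.1 CPM in rd10 HAL and 119 CPM in the library labelled WT replicate 4. In rd10 DMSO *Impg1* was at 15.2% and *Impg2* at 31.9% of WT replicates 1 to 3, and the latter was the largest share of the 9 genes.

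**Figure D1:**
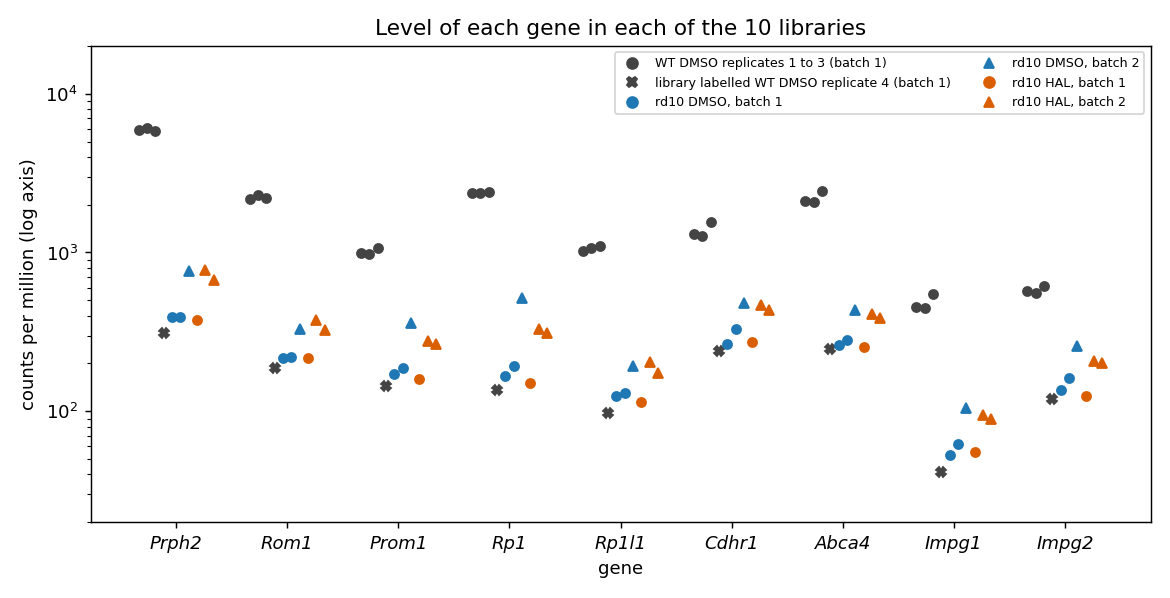
Level of each of the 9 genes (x axis) in each library in CPM on a log axis. Each point is 1 library; for every gene the 3 circles of WT replicates 1 to 3 lie above all others, the cross of the library labelled WT replicate 4 is lowest, and the triangles of batch 2 lie above the circles of batch 1 within rd10.

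Comparison of rd10 DMSO with WT DMSO asked what the rd10 genotype changes under vehicle. With all 4 WT libraries, all 9 genes were lower in rd10, with log2 fold changes of -1.32 (*Impg2*) to -3.14 (*Prph2*), and none passed an adjusted p of 0.05 (edgeR quasi-likelihood test with Benjamini-Hochberg adjustment, adjusted p = 0.187 for each). No gene of 11698 did (0.0%), the lowest adjusted p over all genes being 0.187, while 3108 genes (26.6%) and 9 of 9 of these genes had an unadjusted p under 0.05. DESeq2 called 589 genes (5.04%), 5 of the 9 among them. Without the library labelled WT replicate 4, 7280 of 11696 genes (62.2%) were called, 3502 of them lower (29.9%) and 3778 higher (32.3%), and all 9 genes were called lower. The median log2 fold change of the 9 genes was -2.75, against -0.011 over all genes tested.

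Without that library, *Prph2* fell by 3.52 ± 0.29 on the log2 scale (standard error; adjusted p = 5.92e-05, edgeR) and its partner *Rom1* fell by 3.11 ± 0.18 (adjusted p = 1.97e-05). *Rp1* fell by 3.02 ± 0.43 (adjusted p = 0.000653) and *Rp1l1* fell by 2.82 ± 0.18 (adjusted p = 2.44e-05). For *Abca4* and *Impg1* the log2 fold changes were -2.75 ± 0.20 and -2.71 ± 0.25. Smaller falls were measured for *Prom1* (-2.08 ± 0.27), *Cdhr1* (-1.93 ± 0.21) and *Impg2* (-1.64 ± 0.22; adjusted p = 0.000546). The 3 rd10 DMSO libraries and WT replicates 1 to 3 did not overlap for any of the 9 genes, which was so for 69.1% of all genes. rd10 DMSO replicate 3 is of batch 2 and all WT libraries are of batch 1. In batch 1 libraries alone, again without the library labelled WT replicate 4, all 9 genes were called lower (35.9% of all genes were) and *Prph2* was at -3.92 and *Impg2* at -1.95 on the log2 scale. *Rp1* was then at -3.72 and *Rom1* at -3.34, so the order of these genes turned without rd10 DMSO replicate 3.

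Comparison of rd10 HAL with WT DMSO, which shares its WT libraries with the comparison above, gave log2 fold changes of -1.39 (*Impg2*) to -2.90 (*Prph2*) with all 4 WT libraries, and none of the 9 genes was called (adjusted p = 0.135 to 0.139, edgeR). Over all genes 1 of 11699 (0.00855%) was called, the gene model *Gm45837*, which is named for this count after its values were seen. DESeq2 called 2221 genes (19.0%) and all 9. Without the library labelled WT replicate 4 the count was 8408 genes (71.9%), 4231 of them lower (36.2%), and 9 of 9. In that fit *Prph2* fell by 3.29 ± 0.24 on the log2 scale (adjusted p = 4.97e-06), *Rp1* fell by 3.17 ± 0.26 (adjusted p = 8.92e-06) and *Impg2*, again the smallest of the 9, fell by 1.71 ± 0.17 (adjusted p = 2.45e-05). rd10 HAL replicates 2 and 3 are of batch 2 and all WT libraries are of batch 1. Against WT replicates 1 to 3, the 1 HAL library of batch 1 gave log2 fold changes of -3.98 (*Prph2*), -3.96 (*Rp1*) and -2.21 (*Impg2*).

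**Figure D2:**
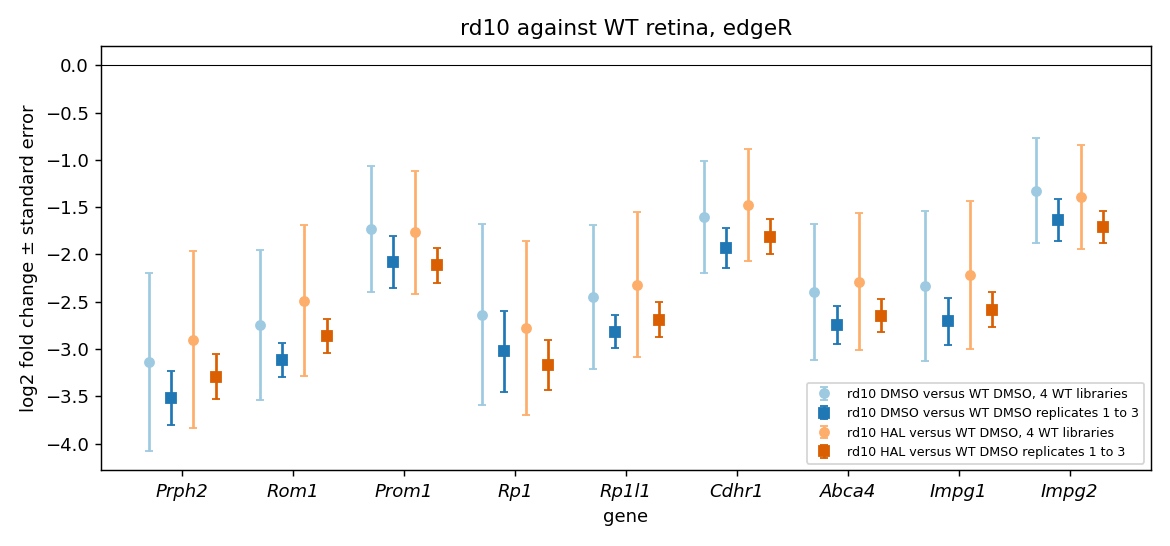
Log2 fold change ± standard error (edgeR) of each gene for rd10 DMSO and rd10 HAL against WT DMSO, with 4 WT libraries (circles) and with WT replicates 1 to 3 (squares). All values lie below 0; with 3 WT libraries they lie lower and the standard errors are shorter, as for *Prph2* under DMSO, from -3.14 ± 0.94 to -3.52 ± 0.29.

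Comparison of rd10 HAL with rd10 DMSO asked whether the treatment changes these genes. No gene was called out of 11692 (0.0%; edgeR, lowest adjusted p 0.883), and 557 (4.76%) had an unadjusted p under 0.05. DESeq2 called 3 genes (0.0257%), *Gm42047* and 2 with no symbol, and none of the 9, and 0 of the 9 had an unadjusted p under 0.05 in either test of all 6 libraries. Of the 9 genes, 6 were higher and 3 lower in the HAL libraries, with a median log2 fold change of 0.13 against -0.0045 over all genes. No marker was called in this comparison. The log2 fold change, without regard to batch, was above 0 for 14 of 15 rod markers (median 0.13) and 10 of 11 cone markers (median 0.092). It was below 0 for all 7 pigment epithelium markers (median -0.78) and above 0 for all 3 blood markers (median 1.45). The part of these markers in the values of the 9 genes was not tested. *Prph2* differed by 0.24 ± 0.34, *Rom1* by 0.26 ± 0.23 and *Rp1* by -0.14 ± 0.47 (HAL minus DMSO; adjusted p = 0.932, 0.891 and 0.971). Without rd10 DMSO replicate 3, the batch 2 library of that group, *Prph2* differed by 0.64 (unadjusted p = 0.0495), *Rom1* by 0.49 (unadjusted p = 0.0453) and *Rp1* by 0.56 (unadjusted p = 0.105), with none called (adjusted p = 0.681 for *Prph2* and *Rom1*, edgeR). The HAL and DMSO libraries overlapped for all 9 genes, and did not overlap for 13.1% of all genes. These standard errors, 0.23 to 0.47 over the 9 genes, leave room for changes of either sign, and the p-values do not show that HAL has no effect.

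Batch 2 holds 2 of the 3 HAL libraries and 1 of the 3 DMSO libraries, so the difference was also measured within batches. In batch 1 (1 HAL against 2 DMSO libraries) the mean log2 CPM was lower under HAL for 9 of 9 genes, with differences of -0.25 (*Impg2*) to -0.00070 (*Rom1*). In batch 2 (2 HAL against 1 DMSO library) the difference was below 0 for 8, down to -0.68 for *Rp1*, and higher for *Rom1* (0.080). The mean log2 CPM of the 15 rod markers was also lower under HAL in both batches. In batch 1 it was 7.32 under HAL against 7.40 and 7.45 under DMSO. In batch 2 it was 8.57 and 8.37 under HAL against 8.73 under DMSO. With batch as a term in the fit, 8 of 9 log2 fold changes were below 0, with a median of -0.11, and the sign of *Prph2*, *Rp1l1*, *Cdhr1*, *Abca4* and *Impg1* turned. *Rp1* was then at -0.46 ± 0.11 (unadjusted p = 0.00303, edgeR), *Impg2* at -0.30 ± 0.078 (unadjusted p = 0.00559) and *Prom1* at -0.29 ± 0.067 (unadjusted p = 0.00332). None passed the adjusted threshold (adjusted p = 0.269 for each of these), 0 of 11698 genes did, and 1943 (16.6%) had an unadjusted p under 0.05. In a test of whether the effect of HAL differed between the batches, none of the 9 genes was called (49 of 11701 genes called; *Rp1* the lowest of the 9, adjusted p = 0.173, edgeR). With 1 HAL library in batch 1 and 1 DMSO library in batch 2, this test cannot show that the batches agree.

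Between the batches the 9 genes differed together. Batch 2 was higher than batch 1 within rd10 for 9 of 9 genes called (edgeR with treatment as a term), where 542 of 11698 genes (4.63%) were called in all and 361 (3.09%) were called higher and 181 (1.55%) lower. The median log2 fold change of the 9 genes was 0.75, against -0.0090 over all genes. *Rp1* differed most, by 1.30 ± 0.11 on the log2 scale (adjusted p = 0.00195), followed by *Prph2* at 0.96 ± 0.063 (adjusted p = 0.00123) and *Prom1* at 0.89 ± 0.068 (adjusted p = 0.00165). *Impg1* was at 0.78 ± 0.078, *Impg2* at 0.75 ± 0.078 and *Cdhr1* at 0.70 ± 0.085. The smallest differences were those of *Rp1l1* (0.67 ± 0.073), *Abca4* (0.66 ± 0.052) and *Rom1* (0.64 ± 0.068), with adjusted p-values of 0.00539, 0.00168 and 0.00518.

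In levels, *Rp1* was 170.0 ± 20.7 CPM in batch 1 and 385 ± 112 CPM in batch 2 (SD, n = 3 each), *Prph2* 385 ± 9.17 and 738 ± 54.8 CPM, and *Abca4* 266 ± 13.7 and 409.7 ± 21.2 CPM. The batches did not overlap for any of the 9 genes, and 14.6% of all genes had every batch 2 library above every batch 1 library. Each gene was higher in batch 2 under either treatment taken alone. In a fit without rd10 DMSO replicate 3, 91 genes (0.778%) and 7 of the 9 were called, and without rd10 HAL replicate 1, 2638 genes (22.5%) and all 9. In a fit of all 10 libraries, which takes in the library labelled WT replicate 4, the log2 fold changes were alike (*Rp1* 1.30) and no gene was called (673 at an unadjusted p under 0.05, none of the 9 among them). What sets the batches apart besides the batch label and the set names is not given in the sources used here, and its part in the result was not tested.

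**Figure D3:**
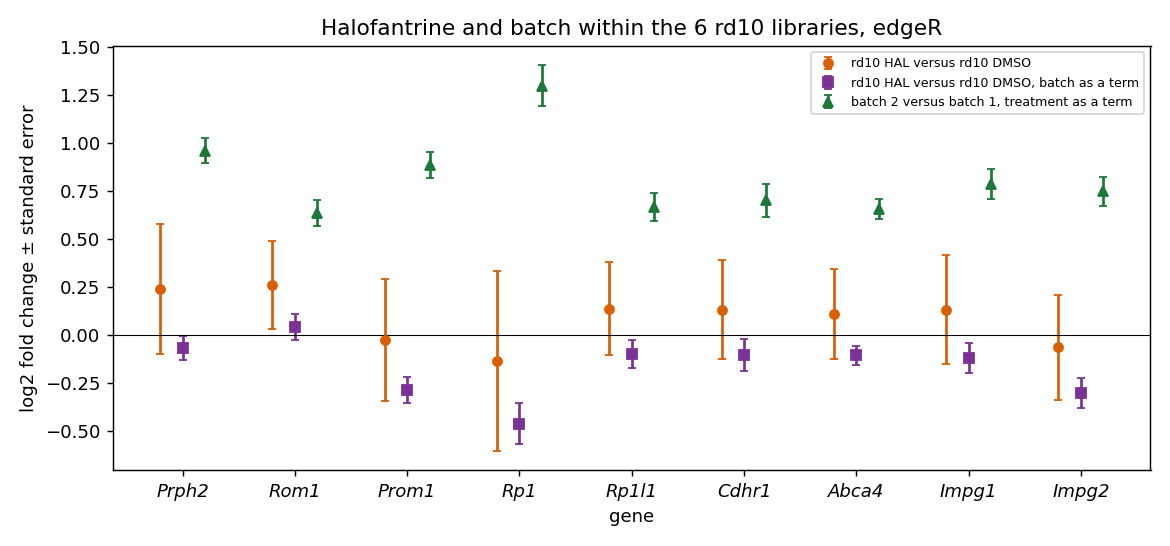
Log2 fold change ± standard error (edgeR) of each gene over the 6 rd10 libraries for HAL against DMSO, without (circles) and with (squares) batch as a term, and for batch 2 against batch 1 (triangles). Batch differences run from 0.64 to 1.30 and lie above all HAL differences, whose sign turns for 5 genes once batch is a term.

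The genes did not all fall by the same share. Within pairs of related genes the log2 ratio of CPM in a library is a difference that gene length cancels out of when libraries are compared. *Prph2* to *Rom1* was 1.45, 1.41 and 1.41 in WT replicates 1 to 3, 0.85, 0.83 and 1.21 in rd10 DMSO and 0.78, 1.05 and 1.06 in rd10 HAL, so every rd10 library was lower. *Impg1* to *Impg2* was -0.33, -0.32 and -0.18 in WT, -1.35, -1.38 and -1.31 in rd10 DMSO and -1.17, -1.13 and -1.15 in rd10 HAL, again with no overlap. *Rp1* to *Rp1l1* was 1.21, 1.15 and 1.14 in WT replicates 1 to 3, 0.41, 0.56 and 1.41 in rd10 DMSO and 0.42, 0.71 and 0.82 in rd10 HAL. For this pair rd10 DMSO replicate 3 lay above the WT libraries and the other 5 rd10 libraries below them. The library labelled WT replicate 4 was at 0.73, -1.52 and 0.46 for the 3 pairs. The ratios are descriptions and were not tested.

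**Figure D4:**
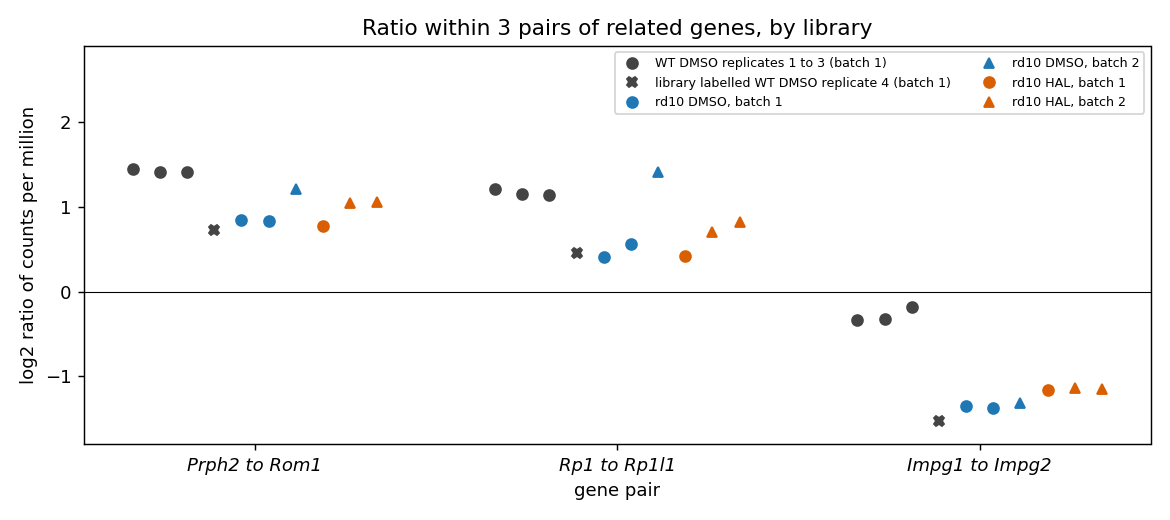
Log2 ratio of CPM within each pair of related genes, 1 point per library. WT replicates 1 to 3 lie above every rd10 library for *Prph2* to *Rom1* and for *Impg1* to *Impg2*; for *Rp1* to *Rp1l1* the batch 2 rd10 DMSO library, at 1.41, lies above them.

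Levels were also set against 15 rod markers, as the gene's log2 CPM minus their mean. *Prph2* was at 1.27 ± 0.065 (SD, n = 3) in WT replicates 1 to 3 and 1.08 ± 0.14 in rd10 (n = 6), a shift of -0.19. *Rp1* was at -0.049 ± 0.026 and 0.0027 ± 0.17, a difference within the spread between libraries. *Impg2* went from -2.08 ± 0.044 to -0.51 ± 0.30, *Cdhr1* from -0.84 ± 0.12 to 0.54 ± 0.29 and *Prom1* from -1.28 ± 0.027 to -0.15 ± 0.22. These 3 genes thus stood higher against the rod markers in rd10, by more than the SD of either group. The shift was 0.60 for *Impg1*, 0.56 for *Abca4*, 0.50 for *Rp1l1* and 0.27 for *Rom1*, the last within the SD of the rd10 libraries (0.31). These shifts differed between the rd10 batches. *Rom1* was at 0.38 in batch 1 and -0.14 in batch 2, where WT replicates 1 to 3 were at -0.15. *Abca4* was at 0.66 and 0.12 (WT -0.17), *Rp1l1* at -0.45 and -0.98 (WT -1.22) and *Impg1* at -1.56 and -1.97 (WT -2.36). *Impg2* was at -0.26 and -0.77, *Cdhr1* at 0.78 and 0.29 and *Prom1* at 0.036 and -0.34. Apart from *Rom1* in batch 2, these 7 genes stood above WT replicates 1 to 3 in both batches by more than the SD of either group. The library labelled WT replicate 4 was above those 3 too, at 0.55 (*Rom1*), 0.94 (*Abca4*), -0.39 (*Rp1l1*) and -1.63 (*Impg1*). It was at -0.11 for *Impg2*, 0.90 for *Cdhr1* and 0.17 for *Prom1*. The differences were taken without it and were not measured over 4 WT libraries. *Prph2* stood below WT replicates 1 to 3 in the mean, at 1.20 in batch 1 and 0.97 in batch 2. In batch 1 it overlapped WT, with rd10 DMSO replicate 1 (1.21) and rd10 HAL replicate 1 (1.22) above WT replicate 3 (1.20). Against the mean of 11 cone markers all 9 genes stood lower in rd10 than in WT replicates 1 to 3, with shifts of -1.82 (*Impg2*) to -3.58 (*Prph2*). The summed level of the rod markers was 82175 to 86868 CPM in WT replicates 1 to 3 and 4377 to 12603 CPM in rd10. The cone markers summed to 2184 to 2345 CPM and 2151 to 2747 CPM.

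Per length, as TPM (transcript counts divided by transcript length and scaled to a common total), *Prph2* was the most abundant of the 9 in WT replicates 1 to 3, at 5031 ± 129 TPM (SD, n = 3), followed by *Rom1* at 3022 ± 84.9 and *Abca4* at 1003 ± 66.7 TPM. *Rp1* (716 ± 10.1), *Cdhr1* (655 ± 74.2) and *Prom1* (639.8 ± 32.8) came next, and *Cdhr1* did not differ beyond its spread from either neighbour. *Rp1l1* (376 ± 13.3), *Impg1* (311 ± 35.9) and *Impg2* (199 ± 8.34) were lowest. In rd10 DMSO *Prph2* (546 ± 234) and *Rom1* (426 ± 106) were still the highest, with overlap between libraries but *Prph2* above *Rom1* in each of the 6 rd10 libraries, *Cdhr1* (209 ± 63.1), *Abca4* (196 ± 65.4) and *Prom1* (183 ± 75.3) overlapped between libraries but stood in this order in each of the 6 rd10 libraries, and *Rp1* (108 ± 71.8) had moved from the fourth place to the sixth. *Impg2* (79.8 ± 30.8) stood above *Impg1* (58.3 ± 21.2) in the order, and did so in each of the 6 rd10 libraries, where in WT replicates 1 to 3 it stood below. In rd10 HAL the order of the 9 genes by mean was that of rd10 DMSO. There *Impg2* (75.6 TPM) and *Rp1l1* (75.5 TPM) were nearly level. *Rp1l1* was the higher of this pair in rd10 HAL replicate 2 and in rd10 DMSO replicate 1. The place of *Abca4* rests on the length used: with the length of its most abundant transcript it was at 113 TPM in rd10 DMSO and 120.3 TPM in rd10 HAL, below *Prom1* (164 and 159 TPM on the same basis), and at 490.0 instead of 789 TPM over the 4 WT libraries.

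Transcript counts were estimated per annotated transcript, and reads from overlapping transcripts of a gene were divided between them by the model, so the shares carry an error that these files do not give. *Prom1* was the gene whose shares differed most. Transcripts that begin within 300 bases of the upstream start shown above (5 transcripts, start at position 44101736 of chromosome 5, GRCm38, minus strand) held 91.8, 90.6 and 92.4% of its counts in WT replicates 1 to 3. They held 77.4, 66.5 and 69.9% in rd10 DMSO and 70.6, 81.1 and 76.2% in rd10 HAL, so all 6 rd10 libraries were lower. Transcripts of the downstream start (5 transcripts, position 44094768, 6968 bases further along the gene) held 0.906, 3.16 and 1.16% in WT replicates 1 to 3, 12.2, 22.1 and 20.6% in rd10 DMSO and 18.7, 11.1 and 13.6% in rd10 HAL. The library labelled WT replicate 4 was at 72.7% upstream and 14.2% downstream. The remaining 9 transcripts held 6.19 to 7.30% in WT replicates 1 to 3 and 7.84 to 11.4% in rd10.

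In levels, the upstream transcripts of *Prom1* were at 930.3 ± 50.8 CPM in WT replicates 1 to 3 (SD, n = 3) and 175 ± 58.8 CPM in rd10 (n = 6). The downstream transcripts were at 9.02, 31.0 and 12.4 CPM in WT replicates 1 to 3, 21.0, 41.3 and 73.7 CPM in rd10 DMSO and 29.6, 30.7 and 36.1 CPM in rd10 HAL. Their means were 17.5 ± 11.8 CPM in WT replicates 1 to 3 (SD, n = 3) and 38.7 ± 18.4 CPM in rd10 (n = 6). The levels overlapped between WT and rd10 through WT replicate 2 alone. The higher share went with a lower level of the upstream transcripts and with no measured fall of the downstream ones. Nearly all downstream counts lay on Prom1-208, at 1.67 ± 1.27% and 16.2 ± 4.77% of the gene, and most upstream counts on Prom1-206, at 80.1 ± 1.02% and 52.5 ± 7.01%. Markers of other retinal cells also differed between the groups. The 7 Müller glia markers summed to 3615 to 3773 CPM in WT replicates 1 to 3 and 5481 to 6339 CPM in rd10. Within rd10 they did not go with the downstream share. Their sum was highest in rd10 DMSO replicate 1, at a share of 12.2%, and lowest in rd10 DMSO replicate 3, at 20.6%. The part of these markers in the result was not tested.

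**Figure D5:**
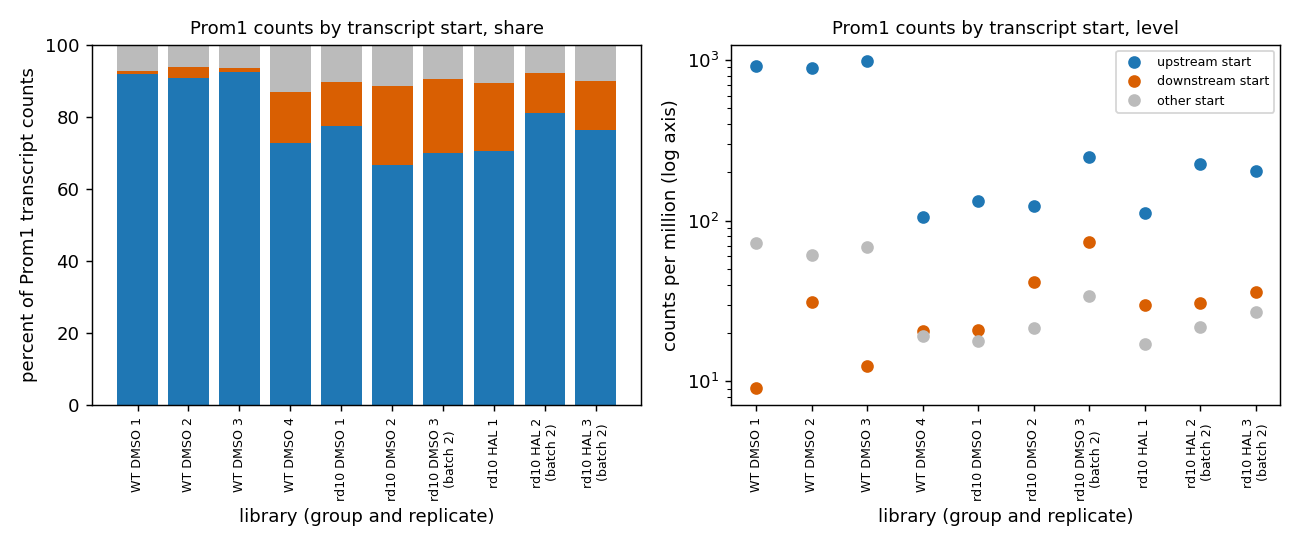
Left, percent of *Prom1* transcript counts on transcripts of the upstream, downstream and other starts in each library; right, the same in CPM on a log axis. The downstream share is 0.906 to 3.16% in WT replicates 1 to 3 and 11.1 to 22.1% in rd10, while the downstream levels overlap.

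The other genes held their transcript use more closely. Rp1-201 was at 99.5 ± 0.056% (SD) of *Rp1* in WT replicates 1 to 3 and 98.2 ± 0.24% in rd10, without overlap. *Rom1* and *Cdhr1* had all counts on 1 transcript each. The noncoding Rp1l1-202 was at 5.28 ± 0.386% and 8.37 ± 0.771% of *Rp1l1*, with no overlap between WT replicates 1 to 3 and rd10. The intron-retaining Prph2-202 was at 9.97 ± 0.840% and 12.2 ± 1.14% of *Prph2*, and the groups overlapped. For *Abca4* the leading Abca4-201 was at 80.9 ± 1.41% and 77.8 ± 1.56%, and for *Impg1* Impg1-201 at 61.1 ± 0.198% and 59.5 ± 3.45%, both with overlap. The long Impg2-202 was at 84.1 ± 1.25% in WT replicates 1 to 3 and 80.7 ± 3.50% in rd10, with overlap, and lowest in rd10 DMSO replicate 3 (74.0%).

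Other genes of the outer segment and of the matrix were set beside the 9 as lists. Of 18 further outer segment, disc and flippase genes (of 19 listed; 3 are also rod markers), none was called in rd10 DMSO against WT DMSO with 4 WT libraries, and without the library labelled WT replicate 4, 16 were called lower and 0 higher (29.9 and 32.3% of all genes), with a median log2 fold change of -2.43. *Prcd*, a small disc protein gene, was then at -3.03 ± 0.12 and *Tulp1*, needed for transport to the outer segment, at -2.50 ± 0.086 (adjusted p = 8.12e-06 for each, edgeR). Between batches 11 of the 18 were called higher in batch 2 and 0 lower (3.09 and 1.55% of all genes). Of 10 other matrix and adhesion genes (of 14 listed), 2 were called lower and 6 higher without that library, where 29.9% of all genes were called lower and 32.3% higher. The 2 were *Rbp3*, the retinoid carrier of the matrix made by photoreceptors, at -1.89 ± 0.13, and *Egflam*, pikachurin of the photoreceptor synapse, at -2.10 ± 0.15. Among the 6 were the tenascin gene *Tnc* (1.47 ± 0.11) and the neurocan gene *Ncan* (0.94 ± 0.13). In the batch comparison 1 of the 10, *Egflam*, was called (0.58 ± 0.074, adjusted p = 0.00914).

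Marker lists of the retina moved as follows in the same fit without the library labelled WT replicate 4, in which 32.3% of all genes were called higher and 29.9% lower. All 15 rod markers were called lower (median log2 fold change -3.13), and of 11 cone markers 4 were called higher (*Gngt2*, *Pde6c*, *Cnga3*, *Gnb3*) and 3 lower (*Opn1sw*, *Gnat2*, *Kcne2*). All 8 gliosis, 7 Müller glia and 5 microglia markers tested were called higher, with 6 of 9 bipolar and 11 of 12 amacrine and ganglion cell markers, while 1 bipolar marker, *Otx2*, was called lower. The 3 blood markers tested were called lower, and 3 of 7 pigment epithelium markers (*Tyrp1*, *Dct*, *Pmel*) and 1 of 3 lens markers (*Cryab*) were called higher. Between batches, where 3.09% of all genes were called higher and 1.55% lower, all 15 rod markers were called higher in batch 2 (median 1.22), with 2 of 11 cone markers (*Opn1sw*, *Opn1mw*). Called lower in batch 2 were 2 bipolar, 2 amacrine and ganglion cell and 2 Müller glia markers, and of the gliosis markers 2 were called higher and 1 lower. No blood or lens marker was called between batches. All 3 blood markers had log2 fold changes above 0 (1.32 to 1.84) and summed to 11.8 to 30.8 CPM in batch 1 and 28.5 to 96.5 CPM in batch 2, and 3 of 4 lens markers were above 0, with sums of 65.3 to 78.0 and 71.5 to 92.2 CPM. Markers of tissue next to the retina varied between libraries. The 7 pigment epithelium markers summed to between 56.3 and 329 CPM in WT replicates 1 to 3 and 163 to 693 CPM in rd10. The 4 lens markers summed to 27.3 to 33.5 and 65.3 to 92.2 CPM. Most of the lens sum was *Cryab*, at 25.4 to 31.8 and 64.9 to 79.3 CPM. The lens gene *Cryaa* was at 0.857 to 3.09 CPM in WT replicates 1 to 3. It was at 14.1 CPM in rd10 HAL replicate 2, 2.83 CPM in rd10 DMSO replicate 3 and at most 0.276 CPM in the other rd10 libraries. The part of such tissue in the levels of the 9 genes was not tested.

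Over the 6 rd10 libraries the log2 CPM of the 9 genes went together, with Pearson's r of 0.86 to 0.998 and a median of 0.97 over 36 pairs. The 6 points of each gene are the same libraries in 2 batches and share depth and treatment. The genes that were no member of the 9 and most like their mean over these 6 libraries were *Ankrd33b*, *Cnga1*, *Smc3*, *Kcnv2* and *Pde6a*. *Cnga1* and *Pde6a*, subunits of the rod channel and of the rod phosphodiesterase, ran from 45.7 to 167 and from 249 to 694 CPM in rd10. *Smc3*, a cohesin subunit made in most cells, had a like pattern over a much smaller range, 114 to 133 CPM. Over all 10 libraries the 5 most like genes were *Gm14029*, *Nt5e*, *Kcnv2*, *Nadk2* and *Gucy2f*. *Kcnv2*, a photoreceptor potassium channel subunit, was on both lists, at 746, 752 and 773 CPM in WT replicates 1 to 3 and 58.5 to 135 CPM in rd10.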

How the data were processed

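Whole retina RNA of 10 libraries was made into stranded libraries (TruSeq). The authors assigned reads to Ensembl mouse transcripts (GRCm39) with kallisto (version not given in the sources used here) and deposited estimated counts per gene and per transcript, with a gene table named CPM. The values deposited in that table are a signal: the estimated counts divided by 1 factor per library, summing to 943804 to 1127682. Gene counts were rounded and tested in R 4.3.3 with edgeR 4.0.16 (filterByExpr, TMM, quasi-likelihood test, Benjamini-Hochberg over all genes, threshold 0.05), each comparison fitted on its own libraries. Levels are CPM after TMM over the 10 libraries, and log2 CPM used a prior count of 2. Between 97.4 and 97.7% of transcript counts matched GENCODE transcripts (GRCm38), which gave TPM lengths and starts. Symbols were found for 11492 of 11702 gene IDs. Counts of 2 libraries of a group differed by a chi-square of 4.48 to 431 per gene, above counting noise in each pair, with 421 and over in the pairs that hold WT replicate 4, so no library was counted as a copy of another. DESeq2 1.42.0, limma-voom 3.58.1, RLE factors, no filter, unrounded counts, all libraries in 1 fit, a batch term and leaving out each library were alternatives. The tests were also run on simulated data, and the outcome is not given here or used as support. From each other list, genes were named by the 2 smallest p-values in each direction in rd10 DMSO against WT DMSO, and the 5 genes most like the mean of the 9 by Pearson's r of log2 CPM. Other cone and pigment epithelium markers were named because they were called, and *Arr3* as a defining cone marker. The genes and lists were chosen with earlier results of these data known. Counts limit precision through sampling error, which is small at these totals next to the spread between libraries.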

Additional observations from a re-analysis of the deposited data

Results flagged for a closer look

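Among the WT libraries, the one labelled WT replicate 4 stood apart from the other 3 WT libraries in 13 of 15 values checked. The share of the group's whole range taken by the gap between this library and the nearest of the others was compared with Dixon's critical value for 4 samples, which chance passes in about 1 group in 20. It was 0.959 for *Prph2* (312 CPM against at least 5866), 0.975 for *Rp1*, 0.936 for *Rom1*, 0.927 for *Rp1l1*, 0.906 for *Prom1*, 0.874 for *Impg2* and 0.839 for *Abca4*. *Cdhr1* (0.780) and *Impg1* (0.801) stayed under the critical value, and for both WT replicate 3 was higher than replicates 1 and 2. The log2 ratios were past it too, at 0.946 for *Prph2* to *Rom1*, 0.914 for *Rp1* to *Rp1l1* and 0.889 for *Impg1* to *Impg2*. So were the shares of *Prom1* counts at the upstream start (0.912), the downstream start (0.830) and the other starts (0.841). All these values come from 1 library and are not independent of each other.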

How the results depend on the processing

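With rd10 against WT, the direction of all 9 genes held under every alternative run, and the calls turned on the library labelled WT replicate 4. Leaving out each library in turn gave 0 to 7280 genes and 0 to 9 of the 9 for rd10 DMSO, and 0 to 8408 genes and 0 to 9 for rd10 HAL. The upper values are those without that library. DESeq2 gave 589 genes and 5 of the 9, and 2221 genes and 9. In batch 1 libraries without that library, chosen after seeing the data, the counts were 8460 and 9 for rd10 DMSO, and 7625 and 9 for rd10 HAL, which had only 1 library there, assumed to vary like the WT libraries. For rd10 HAL the 1 gene called became 0 with limma-voom and with all 10 libraries. For HAL against DMSO, DESeq2 called 3 genes and leaving out each library gave 0 to 7, with none of the 9 in any fit. Batch as a term turned *Prph2* (-0.070), *Rp1l1* (-0.099), *Cdhr1* (-0.10), *Abca4* (-0.11) and *Impg1* (-0.12), and limma-voom turned *Prom1* (0.012). Leaving out each library gave log2 fold changes of 0.026 to 0.64 for *Prph2*, 0.086 to 0.49 for *Rom1*, -0.21 to 0.39 for *Prom1*, -0.41 to 0.56 for *Rp1*, -0.047 to 0.37 for *Rp1l1*, -0.037 to 0.40 for *Cdhr1*, -0.019 to 0.37 for *Abca4*, -0.051 to 0.47 for *Impg1* and -0.24 to 0.25 for *Impg2*. For batch 2 against batch 1, DESeq2 called 1419 genes, a fit of all 10 libraries 0 genes and 0 of the 9, and leaving out each library gave 91 to 2638 genes and 7 to 9 of the 9. The cause was not tested for any of these. With the length of the most abundant transcript, the level of *Abca4* was 113 TPM in rd10 DMSO and 120.3 TPM in rd10 HAL. No paired analysis was possible because the labels give batches and sets that several libraries share, but pair no single library with one of another group. Groups of 3 libraries and their uneven split over the batches limit what the HAL comparison can show.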
